A study of Mus musculus with 17 samples.

Results

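The RNA-seq libraries of 2 haematopoietic cultures, labelled haematopoietic stem and progenitor cell (HSC), were compared with those of 10 lines grown as embryonic stem cells, so that 12 of the 17 samples of the series were used. The 10 lines, called pluripotent lines here for short, were 6 lines of multipotent adult spermatogonial-derived stem cells (MASC, colonies picked from converting cultures of spermatogonial stem cells), 2 embryonic stem cell (ESC) lines and 2 induced pluripotent stem (iPS) cell lines. The members were taken from the sample labels alone. Both HSC cultures were of the strain C57Bl/6J. Bone marrow cells without lineage markers (Lin-) were put on E4ORF1-HUVECs, human endothelial cells kept alive by an adenoviral gene, in serum-free medium with 10 ng/ml soluble Kit ligand, were moved to new feeders every 7 days, and were enriched for Lin- cells again before collection. The pluripotent lines grew on mouse embryonic fibroblasts (MEFs) with leukaemia inhibitory factor. ESC_1, MASC_1 and MASC_2 were Oct4-GFP, ESC_2, MASC_3, MASC_4, iPS_1 and iPS_2 were 129mix, and MASC_5 and MASC_6 were Gt(ROSA26)Sor-lacZ. The iPS cells came from E13.5 MEFs of tetO-4F2A x H3.3B-HA mice, whose 4 reprogramming factors were induced with 2 µg/ml doxycycline. No pluripotent line was C57Bl/6J, and feeder, medium and strain changed together with the cell type, so these cannot be told apart. The labels do not say whether the cultures of a group came from separate mice, so p-values measure only the spread between these libraries.

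Haematopoietic stem cells renew themselves and supply all blood lineages. They are recognised in the mouse by Kit and Ly6a (Sca-1) together with Procr and Slamf1, while Flt3 appears as progenitors lose self-renewal. Kit ligand, the cytokine added here, keeps stem cells and progenitors alive and is also the main survival factor of mast cells, the tissue-resident cells that store histamine, heparin and proteases in granules and carry the high-affinity IgE receptor. Neutrophils arise through promyelocytes that fill their granules with myeloperoxidase and elastase. Embryonic stem cells hold instead to a network around Pou5f1 (Oct4), Sox2 and Nanog and form epithelial colonies.

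For each transcript the authors deposited an FPKM, the number of sequenced fragments scaled to transcript length and library size, so that levels can be compared between genes. A transcript at 1 FPKM had a Cufflinks coverage of 1.64 reads per base in HSC_1 and 1.26 in HSC_2, against 1.54 to 3.23 in the pluripotent lines. HSC_1 had 13532 transcripts at an FPKM of at least 1 and HSC_2 15444, and the pluripotent lines had 14639 to 15412. Pearson's r over 32661 transcripts was 0.93 between the HSC cultures, between 0.774 and 0.822 from either HSC culture to any pluripotent line, 0.812 from HSC_1 to the single MEF library and 0.861 from HSC_2 to it.

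Both cultures were led by mast cell genes. The transcript with the highest FPKM was Tpsb2, a mast cell tryptase, in HSC_1 and Mcpt4, a mast cell chymase, in HSC_2. The 28 genes of the mast cell list made up 10.4% of all FPKM in HSC_1 and 7.73% in HSC_2. Among surface proteins of stem cells and progenitors, Kit was at 401 FPKM in HSC_1 and 286 in HSC_2. Ly6a was at 629.9 and 300.4, and Cd34 was at 159 and 72.8. Procr was at 0.282 and 4.79, Slamf1 at 0.148 and 0.821, and Flt3 at 0.274 and 1.72. The leading genes and the low Procr and Slamf1 go against the stem cell part of the label. They do not judge its progenitor part. Of 28 stem and progenitor receptors and surface proteins, 17 were higher than in the pluripotent lines and 0 lower. The name HSC is used here as the label only. In a bulk library, a few cells with much RNA of a gene and many cells with little cannot be told apart.

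Of the 32661 transcripts, 1460 (4.47%) were higher in the HSC cultures than in the pluripotent lines and 1239 (3.79%) were lower, together 8.26%. A call needed a log2 difference of 2 or more in either direction with a limma p, adjusted by Benjamini-Hochberg, under 0.05. The log2 differences are between mean values of log2(FPKM + 1), a scale that understates changes of genes with a low FPKM. Counting 1 transcript per gene, 1203 of 23891 genes (5.04%) were higher and 1041 (4.36%) were lower, together 9.39%. The median difference over all genes was -0.0030. Counts of called list members are to be read against the 5.04% and 4.36%. Among the transcripts called higher, 493 were under 1 FPKM in each of the 10 pluripotent lines, and among those called lower, 597 were under 1 FPKM in both HSC cultures. Both HSC libraries lay above all pluripotent lines for 1393 of the transcripts called higher and below all of them for 1216 of those called lower, and over all transcripts this held for 15.6% and 20.3%. Taken by cell type, 1372 transcripts were higher and 1233 lower against MASC lines, 1437 and 1227 against ESC lines, and 1481 and 1392 against iPS cells (4.2%, 3.78%, 4.4%, 3.76%, 4.53% and 4.26% of all transcripts, or 7.98%, 8.16% and 8.8% in either direction). These 3 comparisons share the HSC libraries. Leaving out HSC_1 gave 1661 higher and 999 lower transcripts, and leaving out HSC_2 gave 1410 and 1523.

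**Figure D1:**
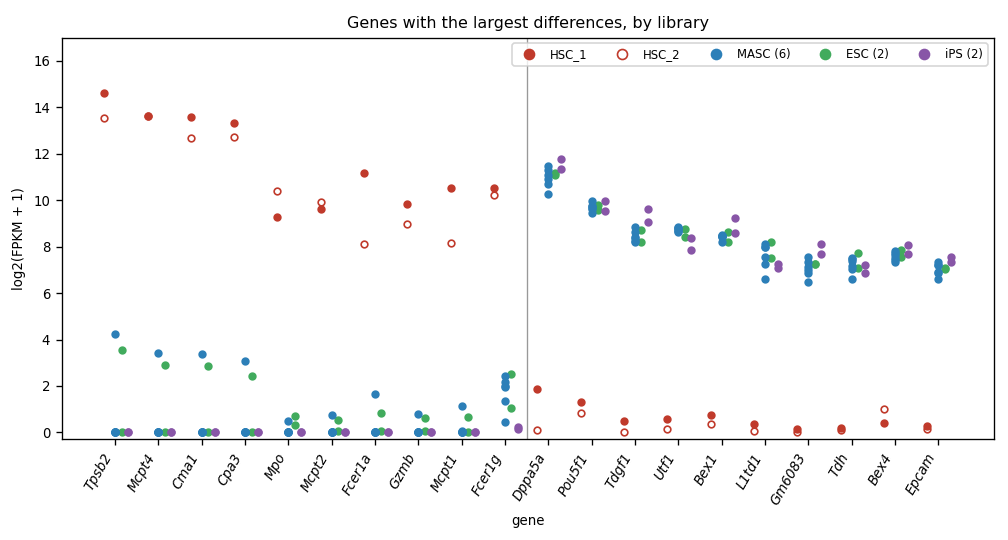
log2(FPKM + 1) of the 10 genes with the largest difference in each direction, by library: HSC_1 (filled red), HSC_2 (open red), 6 MASC (blue), 2 ESC (green) and 2 iPS (purple) libraries. The 20 genes were picked among called transcripts for which the HSC cultures do not overlap the pluripotent lines, so their separation was set by the choice. The first 4 genes lie above 12 in both HSC cultures and between 2 and 5 in 1 MASC and 1 ESC library.

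The largest differences were those of mast cell granule genes. Tpsb2 had 25048 FPKM in HSC_1 and 11721 in HSC_2, against a lowest, median and highest value of 0, 0 and 18 in the pluripotent lines (log2 difference 13.29 ± 1.20 SE, adjusted p = 8.72e-06). Mcpt4 was at 12788 and 12793 against at most 9.58 (13.01 ± 0.95, adjusted p = 1.71e-06). The chymase Cma1 was at 12145 and 6539, and Cpa3, the carboxypeptidase that mast cells store with their proteases, was at 10252 and 6795 (log2 differences 12.49 ± 0.95 and 12.47 ± 0.84). The 2 HSC cultures agreed to within a log2 difference of 1.10 for these 4 genes. The highest pluripotent values of all 4 were in MASC_2, and the next highest in ESC_1. In MASC_2 they were 0.0713% to 0.0775% of the HSC_1 values and in ESC_1 0.0425% to 0.0510%, while no other pluripotent line exceeded 0.0272 FPKM for any of them. With ESC_1 and MASC_2 left out, 27 genes of the mast cell list were still called higher. The source of these values was not tested.

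In full, 27 of the 28 mast cell genes were higher in the HSC cultures, with a median log2 difference of 7.44, and 27 were called under every alternative tried, also with either HSC culture left out. Gzmb, Mcpt1, Mcpt2 and Cma2, all granule proteases, were at 923, 1461, 793 and 441 FPKM in HSC_1 and at 509, 288, 981 and 447 in HSC_2. The proteoglycan that binds them, Srgn, was at 2268 and 728. Hdc, which makes histamine, was at 124 and 282 against 0.204 to 1.8 (median 0.36) in the pluripotent lines. Slc18a2, which loads amines into granules, was at 88.3 and 101. Tph1, the first enzyme of serotonin synthesis, was at 599 and 79. The surface receptors Il1rl1 (for interleukin 33, at 481 and 312), Mrgprb2 (for basic secretagogues, at 130.0 and 110.1) and Adora3 (for adenosine, at 88.4 and 85.8) were each at most 9.11, 0.139 and 0.118 in the pluripotent lines. The exception was Enpp3, an ectoenzyme of mast cells and basophils, which was at 0.0234 and 0.0811 FPKM against 10.5 to 35.1 in the pluripotent lines and so was lower (log2 difference -4.38 ± 0.36, adjusted p = 4e-06). Reads that map to more than 1 place were excluded by the authors, so the division between Tpsb2 and its close relative Tpsab1, and among Mcpt1, Mcpt2 and Mcpt4, is uncertain.

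Most of the serine proteases lie side by side. On mm9 the chymases, cathepsin G and the granzymes fill chr14:56560288-56881097, and of the 19 genes of this stretch and its edges 11 were higher in the HSC cultures. The 9 genes from Cma1 to Ctsg, leaving out a microRNA hairpin, were all called, with FPKM in HSC_1 between 13.4 (Mcpt9) and 12788 (Mcpt4). The next 5 genes, Gzme, Gzmd, Gzmg, Gzmn and Gzmf, were each below 1 FPKM in both HSC cultures and were not called. Gzmc was called at 2.13 and 8.96 FPKM (log2 difference 1.62 and not called without HSC_2), and Gzmb closed the row. The neighbours Khnyn and Sdr39u1, which are no proteases, were at 25.6 and 57.6 FPKM in HSC_1, with log2 differences of 1.70 and 1.39 that were not called. The tryptases lie together on chromosome 17, where Tpsab1 (322 and 205), Tpsb2 and Tpsg1 (387 and 202) were higher and the adjoining Prss28 and Prss29 were not called.

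**Figure D2:**
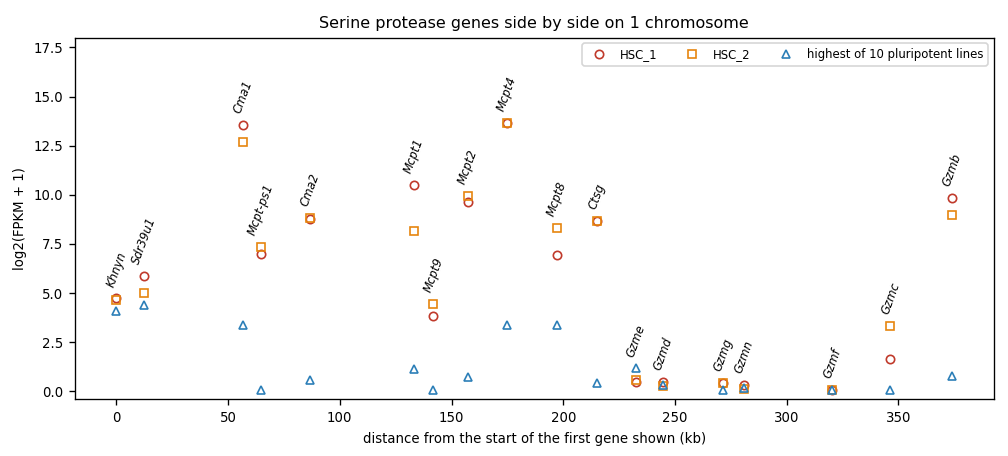
log2(FPKM + 1) of neighbouring genes against the distance in kb of each gene's start from the first gene shown, for HSC_1 (circles), HSC_2 (squares) and the highest of the 10 pluripotent lines (triangles). The proteases from Cma1 to Ctsg and Gzmb lie high in both HSC cultures, and Gzme, Gzmd, Gzmg, Gzmn and Gzmf lie near 0 in all libraries.

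GATA factors are known regulators of mast cell genes, and the stretches before the start sites were read for their motif. The 4 promoter stretches shown, from RefSeq on build GRCm38.p6, hold the 150 bases before the start site of a granule carboxypeptidase, of a chymase and of the alpha and beta chains of the IgE receptor, 5′ to 3′ on the gene's strand, with matches in capitals. A match was any of 4 GATA motifs on either strand, namely the motif AGATAA, the motif AGATAG, the motif TGATAA or the motif TGATAG.
Cpa3 at chr3:20242182-20242331, minus strand: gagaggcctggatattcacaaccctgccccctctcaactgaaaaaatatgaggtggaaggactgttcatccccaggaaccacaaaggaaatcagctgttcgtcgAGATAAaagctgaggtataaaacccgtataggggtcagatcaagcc
Mcpt4 at chr14:56062311-56062460, minus strand: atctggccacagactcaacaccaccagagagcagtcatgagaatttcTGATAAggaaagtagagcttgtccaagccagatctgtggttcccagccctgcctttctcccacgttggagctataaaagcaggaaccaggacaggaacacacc
Fcer1a at chr1:173227230-173227379, minus strand: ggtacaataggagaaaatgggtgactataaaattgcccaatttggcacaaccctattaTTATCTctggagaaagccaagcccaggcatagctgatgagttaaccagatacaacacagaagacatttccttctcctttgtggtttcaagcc
Ms4a2 at chr19:11623720-11623869, minus strand: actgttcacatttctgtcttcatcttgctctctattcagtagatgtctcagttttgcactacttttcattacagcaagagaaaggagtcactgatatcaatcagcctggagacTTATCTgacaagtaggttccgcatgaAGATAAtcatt

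Each of the 4 stretches holds at least 1 motif, which starts 46 bases before the start site in Cpa3, 103 in Mcpt4 and 92 in Fcer1a, and 37 and 11 bases before it in Ms4a2. In the 250 bases before the start site, 16 of the 22 mast cell genes with a promoter entry (72.7%) held such a motif in at least 1 window, against 8039 of 27025 genes with an entry (29.7%). For the other lists the share ran from 9 of 12 erythroid genes (75.0%) to 1 of 18 T and NK lineage genes (5.56%), leaving out lists with fewer than 5 entries. Several of these genes are copies of each other, and a match describes the letters only.

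The high-affinity IgE receptor and its signalling chain were higher with the granule genes. Fcer1a, the IgE-binding alpha chain, was at 2318 FPKM in HSC_1 and 274 in HSC_2, and Ms4a2, the beta chain, at 173 and 109, against at most 2.18 and 0.128 in the pluripotent lines. Fcer1g, the gamma chain that carries the ITAM signalling motif and is shared by other Fc receptors, was at 1476 and 1199 against 0.117 to 4.68 (log2 difference 8.94 ± 0.65, adjusted p = 1.71e-06). Of the 28 Fc receptor and ITAM signalling genes, which include these, 21 were higher, 0 lower and 7 not called. The kinases Lyn (24.8 and 34.7 FPKM) and Btk (66.8 and 81.8) and the adaptors Lat (579.5 and 250.1), Lat2 (303 and 195) and Lcp2 (81.8 and 63) were among the 21. Syk, the kinase that docks on the phosphorylated ITAM, had 18.2 and 34.4 FPKM against 6.22 to 12.5, and its log2 difference of 1.34 did not pass the threshold of 2.

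Lipid mediators form the other arm of the mast cell response. Alox5, which starts leukotriene synthesis, was at 867 FPKM in HSC_1 and 169 in HSC_2, and its partner Alox5ap was at 751 and 849.6. Both were at most 1.77 and 3.59 in the pluripotent lines. Hpgds, which makes prostaglandin D2, was at 45 and 40.3, and Ltc4s, which makes leukotriene C4, at 53.4 and 9.16. In all, 7 of the 14 leukotriene and prostaglandin enzymes were higher. Ptgs2 and Ptges, not called, were at 0.271 and 0.0355 FPKM in HSC_1 and 16.3 and 9.44 in HSC_2.

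Basophils share the IgE receptor with mast cells. Of the 7 basophil genes 6 were higher, with the proteases Mcpt8 at 119.8 and 321 FPKM and Prss34 at 37.1 and 165. The cytokine Il4 was at 10.2 and 9.56 and was listed at 0 in each of the 10 pluripotent lines. Of 9 eosinophil genes 3 were higher. Prg2, the major basic protein, was at 105 and 19.1, whereas Epx, the eosinophil peroxidase, was at 6.75 and 0.364 and Ear1, Ear6 and Ear10 were at 0 in HSC_2.

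Promyelocyte enzymes were among the abundant transcripts, and most genes of later neutrophil granules were not called. Mpo, myeloperoxidase, was at 612 FPKM in HSC_1 and 1335 in HSC_2 (log2 difference 9.66 ± 0.26, adjusted p = 4e-10). The azurophil proteases Prtn3 (634 and 392), Elane (458 and 133) and Ctsg (402 and 405) and the marker Ms4a3 (97.5 and 79.5) were all higher, with no pluripotent line above 2.66. Among genes of secondary and tertiary granules, Ltf, lactoferrin, was at 0.866 and 0.106, Camp at 3.61 and 0.678, and Ngp at 12.3 and 0.482, and none of these was called. In all, 8 of 21 neutrophil and promyelocyte genes were higher, and 14 were when HSC_2 was left out. S100a8 was among the 8 (log2 difference 5.70) and was not called without HSC_1 (2.99).

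Calls in the lists of other blood lineages ranged from 0 to 14 genes. Over all genes 5.04% were higher and 4.36% lower. The T and NK list (8.33% in each direction) and the erythroid list (10.5% higher and 5.26% lower) were near these shares. Of 23 monocyte and macrophage genes 11 were higher, led by Ly6c2 at 126 and 28.7 FPKM, but only 5 when HSC_2 was left out. The complement gene C1qb was at 6.4 and 25.5 (log2 difference 2.94, and 2.02 and not called without HSC_2), below the 266 of the MEF library, and the scavenger receptor Msr1 at 0.267 and 0.744. Of 16 dendritic cell and MHC class II genes 3 were higher (H2-DMb1, H2-Ab1 and H2-DMa), with H2-Ab1 at 39.6 and 8.39, while Ciita, the class II transactivator, was at 0.0241 and 0.154. None of 19 B lineage genes was called, and Pax5, the factor that commits cells to this lineage, was at 0 in both. Of 24 T and NK lineage genes Nkg7 (20.9 and 44.6 FPKM) and Gata3 (6.32 and 9.86) were higher, Gata3 by 2.01 with a call lost without HSC_2 (1.73) and without any of ESC_2, MASC_4, MASC_6 and iPS_1 (1.93 to 1.99), and Lck and Tcf7, which the pluripotent lines carried at medians of 8.5 and 23.1, were lower. Cd2, Cd3g, Cd5 and Gzma were at 0 in both HSC cultures. Of 19 erythroid genes, Hbb-bt and Hbb-b1 were higher at 4.81 and 5.44 FPKM in HSC_1 and 3.19 and 2.82 in HSC_2, a call that both lost without HSC_1 (1.91 and 1.76), and Rhd was lower. The globin genes have near-identical copies. The cultures had been depleted of cells with lineage markers, a step aimed at mature cells.

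Genes shared by all leukocytes were higher without exception. The 28 pan-leukocyte genes had a median log2 difference of 5.55, and 28 were called under every alternative tried. Ptprc, the CD45 antigen, was at 19.7 and 23.7 FPKM against at most 0.243, Tyrobp, an ITAM adaptor, at 1802 and 665, and Coro1a, an actin regulator of leukocytes, at 488 and 246 against 2.72 to 6.09. Of the 7 NADPH oxidase subunits, which make superoxide in phagocytes, 5 were higher, Ncf1 being at 64.4 and 35 and the catalytic subunit Cybb, not called, at 3.57 and 5.57. Of the 28 integrins and adhesion genes 7 were higher (25%, against 5.04% of all genes). Another 2 were lower (7.14%, near the 4.36% of all genes). Itga2b was at 338 and 232 FPKM and Itgb7, which pairs with Itga4 in homing to the gut, at 284 and 26.4. The laminin-binding Itga6 (1.37 and 3.89 against 17.8 to 40.9) and Itga3 (0.197 and 1.92 against 11.9 to 67) were the 2 lower ones.

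**Figure D3:**
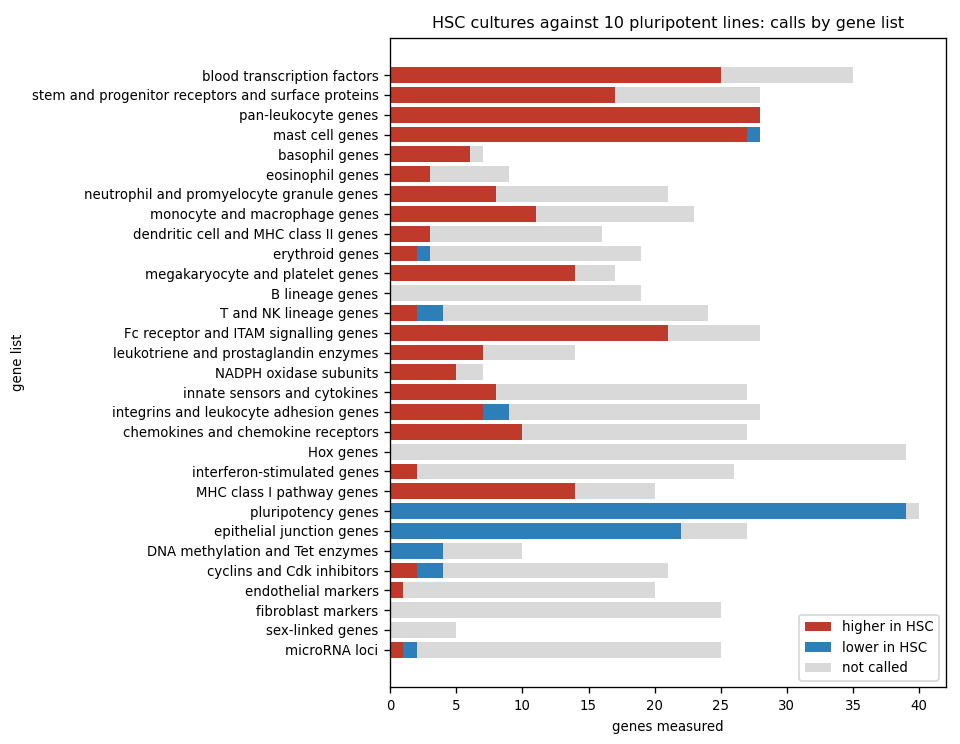
Number of genes called higher (red), called lower (blue) and not called (grey) in the HSC cultures against the 10 pluripotent lines, for each of 30 gene lists. The pan-leukocyte list is higher in 28 of 28 genes and the mast cell list in 27 of 28, and the pluripotency list is lower in 39 of 40.

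Blood transcription factors followed. Of 35, 25 were higher, 0 were lower and 10 were not called. Gata2, a factor of early progenitors and mast cells, was at 495 FPKM in HSC_1 and 375 in HSC_2 against 0.569 to 3.89 (median 1.06) in the pluripotent lines (log2 difference 7.53 ± 0.43, adjusted p = 2.21e-07). Gata1 was at 64.2 and 37.6, Spi1 (PU.1), the myeloid master regulator, at 139.8 and 130.1, Tal1 at 39.5 and 28.9, and Mitf, needed for mast cell differentiation, at 9.42 and 5.94. Cebpa, the factor of granulocyte progenitors, was at 19.1 and 45.5, and Myb at 29.6 and 68.3. Meis1 was at 12.3 and 12.4 (higher), Hlf at 1.75 and 1.33 and Mecom at 0.166 and 0.802 (both not called). None of 39 Hox genes was called. Hoxb4 was at 2.5 and 2.57 FPKM and Hoxa9 at 0.698 and 2.58.

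Of 28 stem and progenitor receptors and surface proteins 17 were higher, receptors of haematopoietic growth factors among them. Kit had 0.347 to 10.6 FPKM in the pluripotent lines (log2 difference 5.84 ± 0.65, adjusted p = 4.35e-05). Csf2rb, the shared beta chain of the receptors for interleukin 3, interleukin 5 and GM-CSF, was at 527 and 124, and Csf2rb2, a near copy, at 348 and 71.3, a division that is uncertain. The alpha chains Il3ra and Il5ra were at 141 and 2.82 FPKM in HSC_1 and 63.5 and 6.22 in HSC_2 (Il5ra 1.58 and not called without HSC_2), and Csf3r, the G-CSF receptor, at 4.5 and 10.2. Procr, Esam and Thy1 had log2 differences of -1.22, -0.53 and -0.91, and 0 members of the list were called lower. Ly6a was also at 120.4 FPKM in the MEF library and up to 76.8 in a pluripotent line.

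Signals sent out by the cells were higher in part. Of 27 chemokines and chemokine receptors 10 were higher, with Ccl2 at 963 and 607 FPKM against 0.205 to 315 (median 9.51) and Ccl7 at 100.4 and 411. Ccl2 lost its call without either HSC culture (log2 differences 5.79 and 6.46), and Ccl7 without HSC_2 (4.04). Of 27 innate sensors and cytokines 8 were higher, among them Tgfb1 (399 and 313), Tnf (18.1 and 28.1) and Il6 (10.6 and 16.4). Of 20 MHC class I pathway genes 14 were higher. B2m, the light chain of class I molecules, was at 1683 and 1255 FPKM against 10.5 to 231, and the peptide transporter Tap2 at 98.4 and 111 against 0.832 to 10.2. Strain differed between the groups, and class I genes are polymorphic, so the division of reads among the H2 genes is uncertain. Of 26 interferon-stimulated genes 2 were higher (7.69%, against 5.04% of all genes) and 24 were not called.

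Genes of the pluripotency network fell. Of 40 genes 39 were lower, with a median log2 difference of -5.03. Pou5f1 was at 1.49 FPKM in HSC_1 and 0.797 in HSC_2 against 693 to 1007 (median 828) in the pluripotent lines (log2 difference -8.62 ± 0.15, adjusted p = 6.03e-12). Sox2 was at 0.208 and 0.513 against 120.5 to 196, and Dppa5a, the largest fall of all, at 2.64 and 0.088 against 1215 to 3504 (-10.11 ± 0.42). The other genes with the largest falls were Tdgf1, Utf1, Bex1, L1td1, Gm6083, Tdh, Bex4 and Epcam, with log2 differences from -8.36 (Tdgf1) to -6.91 (Epcam). Tdh makes glycine and acetyl-CoA from threonine in mouse embryonic stem cells. Klf2 was the one gene of the list not called, at 126 and 65.5 FPKM within the pluripotent range of 30.4 to 196. It is also a factor of blood and endothelial cells.

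Epithelial genes fell with it. Of 27 junction genes 22 were lower, with 17 when HSC_1 was left out. Cdh1, E-cadherin, was at 0.552 and 2.3 FPKM against 101 to 141, Epcam at 0.197 and 0.117 against 95.4 to 188, and the tight-junction protein Cldn4 at 0.152 and 0.0837 against 73.9 to 209. Of 10 DNA methylation and Tet enzymes Dnmt3b, Dnmt3l, Tet1 and the main transcript of Dnmt3a were lower, while Dnmt1, which maintains methylation, had 34.6 and 35.2 against 25.2 to 44.8. Among 21 cyclins and Cdk inhibitors Ccnd2 (62 and 34 against 0.636 to 13.7) and Cdkn2c were higher and Ccne1 (19.4 and 9.97 against 108 to 148) and Ccnb1 were lower. This was 9.52% of the list in each direction, near the 5.04% and 4.36% of all genes. Mki67, a marker of cycling cells, was at 29.3 and 48.2 against 18.3 to 39.9. No sex-linked gene of 5 was called.

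For 15 genes 1 transcript was higher and another lower. Dnmt3a is known to have an upstream and a downstream promoter, which give a long and a short protein. Of its transcripts from the upstream start, NM_007872 was at 8.18 FPKM in HSC_1 and 6.71 in HSC_2 against a median of 0.735 and at most 4.65 in the pluripotent lines (log2 difference 2.05 ± 0.61, adjusted p = 0.0238), while NM_001271753 was below 0.1 in both HSC cultures against a median of 1.41 and at most 3.66 and was not called (-1.02 ± 0.58). The short form, NM_153743, was at 1.18 and 2.83 against 13.8 to 27 (-2.75 ± 0.27, adjusted p = 1.55e-05). In Fblim1, an adhesion adaptor, NM_133754 was at 12.9 and 11.5 against 0.455 to 1.82, and NM_001163256 at 0.565 and 0.357 against 60.8 to 99.1. In Lrch4, NM_001168652 was at 49.5 and 48.8 against 1.03 to 3.46, and NM_146164 at 9.28 to 26.4 in the pluripotent lines and below 0.1 in both HSC cultures. The others were Abi1, Arhgap17, Arhgef1, Bscl2, Fgfr1, Fnbp1, Immt, Nf2, Nrf1, Pphln1, Rps6ka1 and Smarcc2. These are shares that Cufflinks estimated among overlapping transcripts.

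Of 25 microRNA loci Mir142 was higher, at 480.2 and 172 FPKM against 0 to 51.3 (median 0) in the pluripotent lines, and Mir17hg, the host transcript of a microRNA cluster, was lower. Each made up 4% of the list, and over all genes 5.04% were higher and 4.36% lower. Mir290, of the cluster typical of embryonic stem cells, was listed at 0 in both HSC cultures and at 0 to 29.2 in the pluripotent lines, and was not called. Hairpins are short and poorly measured by this kind of library, so these values stand for the region of the primary transcript. The mature sequences that the 2 loci give, from RefSeq on GRCm38.p6 with the seed (bases 2 to 8) in capitals, show that the seeds of a blood microRNA and an embryonic stem cell microRNA differ.
miR-142a-5p: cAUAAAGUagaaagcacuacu
miR-142a-3p: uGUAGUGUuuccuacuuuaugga
miR-290a-5p: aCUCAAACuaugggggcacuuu
miR-290a-3p: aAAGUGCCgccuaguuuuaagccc

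The 2 HSC cultures differed by at least 2 on the log2 scale in more transcripts than any pair of lines within 1 pluripotent cell type. The median absolute log2 difference over all transcripts was 0.183 for the HSC pair and also 0.183 for MASC_2 and MASC_5. With 1 library each there is no test, and the differences are given as values with the 95% bounds that Cufflinks set on each FPKM, which cover the estimate within a library only. Between HSC_1 and HSC_2, 999 transcripts (3.06% of 32661) differed by at least 2 on the log2 scale, 236 (0.723%) higher in HSC_1 and 763 (2.34%) higher in HSC_2. After quantile normalization the counts were 282 and 541. Over all 23891 genes, 61.8% had the higher value in HSC_2 and 23.7% in HSC_1, by any amount, and the counts of list members on 1 side are to be read against these shares. The 15 pairs of MASC lines had 138 to 705 such transcripts (median 540), the ESC pair had 340 and the iPS pair had 256. HSC_1 had 7813 transcripts at 0 and HSC_2 had 4046, and for 582 of the 763 the HSC_1 value was under 1 FPKM. The bounds lay apart for 172 of the 236 and 664 of the 763.

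**Figure D4:**
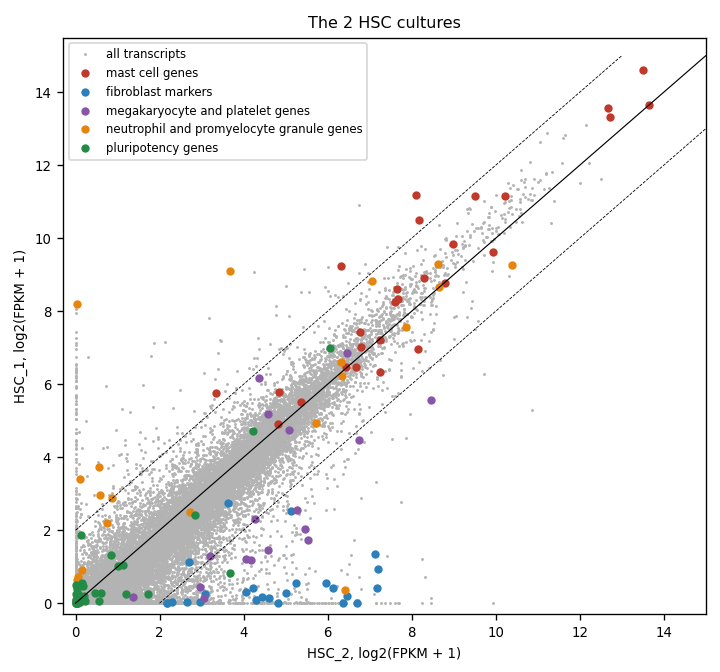
log2(FPKM + 1) of every transcript in HSC_1 against HSC_2, with members of 5 gene lists coloured, the line of equality (solid) and differences of 2 (dashed). Of the 28 mast cell genes 24 lie between the dashed lines, 23 of 25 fibroblast markers lie beyond the lower dashed line, and S100a8 and S100a9 stand out above the upper one.

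HSC_2 was higher in genes of connective tissue. All 25 fibroblast markers were higher in HSC_2, 23 of them by at least 2, against 2.58% of all genes, and the median difference was -4.26 (HSC_1 minus HSC_2). Their summed level was 17.3 FPKM in HSC_1, 1103 in HSC_2, 113 to 2272 in the pluripotent lines and 13176 in the MEF library. Col1a2, a chain of type I collagen, was at 0.34 FPKM in HSC_1 (bounds 0.248 to 0.433) and 143 in HSC_2 (bounds 141 to 145). Dcn, decorin, was below 0.1 and at 103, and Sparc, a matrix glycoprotein, at 0.919 and 147. The largest differences in this direction were taken among transcripts whose bounds lay apart. They belonged to Mmp3, a matrix protease (0.115 and 353), Bgn, biglycan (0.638 and 318), Atp6v0c-ps2, Timp1, Col1a2, Ccl8, Dcn, Fn1, Mgp and Fbln2. Of the 763 transcripts, 567 (74.3%) were at 1 FPKM or more in the MEF library, as were 147 of the 236 (62.3%) and 14834 of all transcripts (45.4%). The part of other cells in these differences was not tested. None of the 25 was called between the HSC cultures and the pluripotent lines.

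Endothelial and megakaryocyte genes were also higher in HSC_2. Of 20 endothelial markers 19 were higher (61.8% of all genes were) and 7 by at least 2, such as Tie1 (0.316 and 14.1 FPKM) and Eng (0.119 and 14.6), while Pecam1 was at 42.3 in HSC_1 and 19.2 in HSC_2. Of these 20, Vwf was called higher against the pluripotent lines (5%, against 5.04% of all genes). The part of the HUVEC feeders in these values was not tested. Of 17 megakaryocyte and platelet genes 10 were higher in HSC_2 by at least 2, with a median difference of -2.54. Pf4, platelet factor 4, was at 46.1 (bounds 42.2 to 49.9) and 353 (bounds 341 to 364), Itgb3, the partner of Itga2b in the fibrinogen receptor, at 2.32 and 45.6, and Gp9, of the von Willebrand factor receptor, at 3.06 and 42.9. Against the pluripotent lines 14 of the 17 were higher, and 9 when HSC_2 was left out. Itgb3 was called at 2.11, and was at 0.21 and not called without HSC_2. It also lost its call without any 1 of the 9 pluripotent lines other than MASC_1 (2.04 to 2.18, limma adjusted p from 0.0523 to 0.0686). Gp1ba was at 114 and 86.8 FPKM, with the higher value in HSC_1.

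Interferon-stimulated genes and Hox genes showed the same side. Of 26 interferon-stimulated genes 24 were higher in HSC_2, 9 of them by at least 2, including Ifit1 (0.111 and 13.2 FPKM), Irf7 (1.97 and 31.1) and Oasl2 (1.35 and 27.9). Ifitm1 was higher in HSC_1, at 623 and 117. All 39 Hox genes were higher in HSC_2, 2 by at least 2, against 61.8% and 2.58% of all genes, Hoxb7 being at 0.115 and 6.01. The Hox genes of HSC_2 summed to 41.7 FPKM, those of HSC_1 to 5.36 and those of the MEF library to 147.0. Erythroid genes such as Car1 (0.4 and 7.13) and Hemgn (0.203 and 6.32) were higher in HSC_2 in 16 of 19 cases. So were 17 of 19 B lineage and 24 of 28 integrin and adhesion genes, against 61.8% of all genes. Many of these values lie near 0. Under 1 FPKM in both cultures were 24 Hox, 10 erythroid, 15 B lineage and 5 integrin and adhesion genes. In HSC_1, 11 Hox and 9 B lineage genes were at 0. Mmp9, a gelatinase of the neutrophil list, was at 0.278 in HSC_1 and 84.6 in HSC_2.

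HSC_1 was higher in neutrophil calprotectin and in part of the mast cell list. S100a9 was at 295 FPKM in HSC_1 (bounds 279 to 312) and 0.024 in HSC_2 (bounds 0 to 0.263), and S100a8, its partner, at 551 and 11.9. Ngp, Chil3, Fcnb and Mmp8, genes of later neutrophil stages, were higher in HSC_1 by at least 2 as well, at 12.3, 9.5, 6.82 and 6.45 FPKM there and 0.482, 0.072, 0.492 and 0.834 in HSC_2. Mmp9, a gelatinase of the same list, went the other way. Of the 21 neutrophil and promyelocyte genes, 6 were thus higher by at least 2 in HSC_1 and 1 in HSC_2. Over all genes these shares were 0.703% and 2.58%. Of the promyelocyte enzymes, Elane and Prtn3 had the higher value in HSC_1 and Mpo in HSC_2. Of the 28 mast cell genes 20 were higher in HSC_1, and 4 by at least 2, against 0.703% of all genes, namely Fcer1a (a difference of 3.08), Tph1 (2.91), Ltc4s (2.42) and Mcpt1 (2.34). Mcpt8 and Hdc were higher in HSC_2, by 1.41 and 1.17. The interleukin 1 decoy receptor Il1r2 was at 106 and 0.236, Avil, an actin-binding protein, at 139.9 and 2.67, and the imprinted neighbours Igf2 (61.3 and 0.651) and H19 (109 and 2.45) were both higher in HSC_1. Rpl26, Rpl38, H2-Q8 and Pisd-ps1 also stood among the largest differences, and these have near-identical copies elsewhere.

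**Figure D5:**
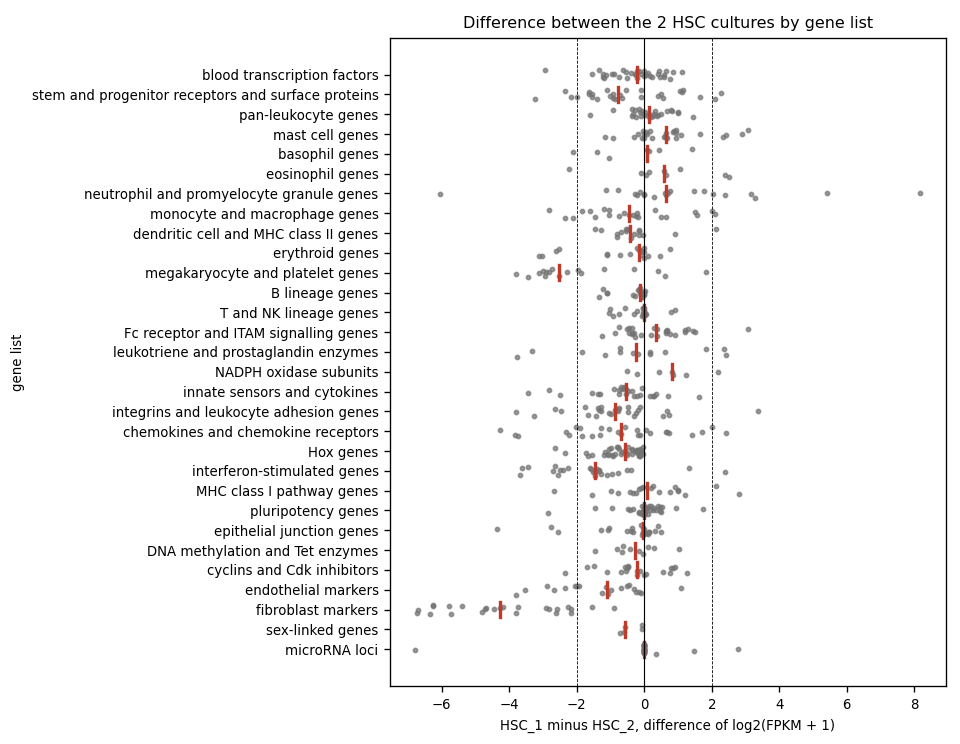
HSC_1 minus HSC_2 difference of log2(FPKM + 1) for each gene of 30 lists (points) with the median of the list (red bar) and differences of 2 (dashed lines). Fibroblast markers have a median of -4.26 and megakaryocyte and platelet genes of -2.54, and the mast cell list has a median of 0.63.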

How the data were processed

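The authors aligned reads with TopHat2 2.0.11 to mm9 and estimated RefSeq transcripts with Cufflinks, whose version is not given in the sources used here. Duplicate reads and reads that mapped to several places were excluded, and values were normalized to the upper quartile and for GC content. The deposited FPKM values, their 95% bounds and the deposited coverage were used, 1 file per library. The files hold no counts, so sampling depth is known only as coverage. Of 33262 rows per file, 601 further copies of transcripts at other loci were dropped, and 32661 transcripts with 23891 symbols were kept.

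Differences of log2(FPKM + 1) were tested with limma 3.58.1 in R 4.3.3 (moderated test, Benjamini-Hochberg over 32661 transcripts), with the libraries as replicates. The fit took 1 spread per transcript for both groups, to which the pluripotent lines, as the larger group, contributed most. Where the HSC cultures varied more than the pluripotent lines, the SE and p-values understate the uncertainty. Calls needed a log2 difference of at least 2 and an adjusted p under 0.05. A gene stands for its transcript with the highest average of the 2 group means. On simulated data with 200 transcripts changed by 3 on the log2 scale, 180 (90%) were recovered for the HSC against pluripotent comparison over 32661 transcripts, with 0 false calls. The simulated noise was normal, with 1 spread per transcript shared by both groups, and only transcripts of middling level were changed. A larger spread between the HSC cultures and values held at 0 were not simulated, so these figures do not give the error rates of the real comparison.

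Named genes were the 10 with the largest difference in each direction, members of 30 gene lists, the 10 with the largest difference in each direction between the HSC cultures, and genes with transcripts called in opposite directions. Genes ranked by difference had transcripts of at least 200 bases. Those ranked against the pluripotent lines were also called, with 2 groups that did not overlap. Those ranked between the HSC cultures had estimates that Cufflinks marked as OK in both and bounds that lay apart. Both separations were thus conditions of the choice. Neighbours at the protease loci were named by position. The members and lists were chosen with earlier results of these data known, and lists share genes. Values of some list members are not reported here. Promoters and microRNAs were read from RefSeq on GRCm38.p6 by symbol, and no coordinates were carried between builds. Alternatives were a pseudocount of 0.1, a filter keeping transcripts that reached 1 FPKM in 2 or more libraries, quantile normalization, a log2 difference of 1, other variance settings, all 17 libraries, the replicate block and leaving out each library.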

Additional observations from a re-analysis of the deposited data

Results flagged for a closer look

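Of 150 named genes with values above 0 in the pluripotent lines, 32 had 1 pluripotent library whose gap to the nearest other library, taken over the range of all 10, was above Dixon's 95% critical value of 0.466. The critical value flags about 1 in 20 groups by chance only where values have a normal spread. Several of these genes lie near 0 FPKM, so that rate cannot be set against the 32, and the genes are not independent of each other.

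ESC_2 was the highest library for 13 of the 32, most of them genes of neutrophils and red cells. Its FPKM values were Camp (0.809), Chil3 (2.91), Fcnb (0.107), Hbb-b1 (0.774), Hbb-bt (0.616), Ltf (0.407), Mmp8 (1.22), Ngp (1.89), Nkg7 (0.0939), Prg2 (0.469), S100a8 (11.2), S100a9 (4.75) and Tie1 (0.800). The next highest pluripotent library was at 0.706 for S100a8 and 0.325 for S100a9. MASC_2 was the highest for 8 genes, among them Fcer1a, Hdc, Tph1 and Tpsg1 of the mast cell list, with FPKM values of Coro1a (6.09), Fcer1a (2.18), Hdc (1.80), Mir142 (51.3), Mitf (0.271), Ms4a3 (0.121), Tph1 (0.985) and Tpsg1 (0.290). For Mir142 the other 9 pluripotent lines were listed at 0. MASC_2 was also the lowest for Pecam1 (4.35 against 9.04 to 17.3). MASC_1 was the highest for Il1rl1 (9.11), Ly6c2 (3.67) and Tap2 (10.2). The remaining ones were Bex1 in iPS_2 (595 against 292 to 393), Gp9 in ESC_1 (0.0358 against 0), Itgb7 in iPS_1 (13.3 against 3.11 to 6.7), Kit in MASC_5 (0.347 against 2.96 to 10.6), Slamf1 in iPS_1 (0.00622 against 0 to 0.000555), Slc18a2 in MASC_6 (0.878 against 0.222 to 0.464) and Utf1 in iPS_2 (231 against 331 to 458).

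Blood genes were also measured in libraries that entered no comparison. Tpsb2 was at 10.4 FPKM in SSC_3, a library of spermatogonial stem cells, the germ cells from which the MASC lines were derived. Over Tpsb2, Mcpt4, Cma1 and Cpa3, SSC_3 held 0.0412% to 0.0441% of the HSC_1 value. In the MEF library Fcer1g was at 245 FPKM and Tyrobp at 229, against at most 4.68 and 6.10 in the pluripotent lines. The source of these values was not tested.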

How the results depend on the processing

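Calls rest on 2 HSC libraries, FPKM without read counts, and no sequencing batch in the sources, so a count test or a batch term could not be fitted. A smaller pseudocount and a lower threshold moved the counts most. With a pseudocount of 0.1, 2494 transcripts were higher and 2974 lower against all pluripotent lines, 2285 and 2924 against MASC, 2273 and 2638 against ESC, and 2404 and 2953 against iPS. Between the HSC cultures 691 were then above in HSC_1 and 2869 in HSC_2, and 42 genes had transcripts called in opposite directions. With a log2 difference of at least 1 the counts were 3332 and 3668, 3098 and 3634, 3080 and 3297, and 3197 and 3493, with 60 such genes. Leaving out 1 library at a time gave 1390 to 1661 higher and 999 to 1523 lower against all lines, 1317 to 1621 and 1004 to 1518 against MASC, 1262 to 1656 and 1007 to 1516 against ESC, 1232 to 1709 and 1149 to 1627 against iPS, and 14 to 18 genes with opposite transcripts. The lone HSC library was then assumed to vary like the other groups.

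Replicate numbers are shared between groups. The deviations of same-numbered HSC and pluripotent libraries from their group means had r from -0.15 to 0.141. Within the HSC, ESC and iPS groups the deviations of the libraries were mirror images of each other, so few of these values are distinct. They cannot show whether same-numbered libraries shared a batch or a preparation. With the replicate block 1288 transcripts were higher and 1120 lower against all lines, 955 and 810 against MASC, 1181 and 992 against ESC, and 1225 and 1139 against iPS, and 14 genes had opposite transcripts.

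Of 3608 values of 151 named genes, 3505 kept their direction and their side of the threshold, 46 lost the call, 56 gained it and 1 reversed. Il1r2 was at -0.0073 without HSC_1 and at 6.43 without HSC_2. Avil was at 1.52 and not called without HSC_1. The cause was not tested. The settings with ESC_1 and MASC_2 left out and with transcripts of at least 200 bases were chosen after seeing the data.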
